A study of Mus musculus with 18 samples.

Results

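The genes described here are 10 sensors of microbial and lipid metabolites with their closest partners, taken by symbol from the 30905 genes of the count tables. They are Ahr, Arnt, Arnt2, Tiparp, Rxra, Rxrb, Rxrg, Nr1h2, Nr1h3 and Ppara, and all 10 were present. The last 6 encode nuclear receptors. Ahr, Arnt and Arnt2 encode basic helix-loop-helix PAS proteins, and Tiparp encodes an enzyme.

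Single nuclei of the hippocampus (Hip) and the prefrontal cortex (PFC) were sequenced from 9 Kun Ming mice, all harvested at 8 weeks of age. Of these, 3 were germ-free (GF) mice without a gut microbiota, 3 were specific pathogen-free (SPF) mice with one, and 3 were colonized germ-free (CGF) mice, which were born germ-free and received a microbiota as juveniles by sharing an isolator with SPF mice. GF and CGF mice lived in isolators, and CGF mice spent early life without microbes. Each mouse gave 1 droplet library per region, 18 libraries in all, and values per mouse are listed below for GF mice 5, 6 and 7, SPF mice 30, 31 and 32, and CGF mice 17, 18 and 19, in that order.

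AhR is a cytosolic receptor held by a chaperone complex, and it binds indoles and kynurenines made from tryptophan by gut bacteria and by the host. With a ligand it enters the nucleus, pairs with ARNT or the related ARNT2 and switches on genes such as Tiparp, whose product restrains AhR in turn. The retinoid X receptors RXRα, RXRβ and RXRγ (Rxra, Rxrb, Rxrg) are the shared partners of the liver X receptors LXRβ (Nr1h2) and LXRα (Nr1h3), which sense oxysterols and steer cholesterol export, and of PPARα (Ppara), which senses fatty acids and steers their oxidation.

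In the GENCODE annotation of the build GRCm38, Ahr lies at chr12:35497974-35535038 on the minus strand, Arnt at chr3:95434388-95497240 (plus), Arnt2 at chr7:84246278-84410176 (minus) and Tiparp at chr3:65528410-65555518 (plus). Rxra lies at chr2:27676440-27762957 (plus), Rxrb at chr17:34031812-34038399 (plus) and Rxrg at chr1:167598384-167639623 (plus). Nr1h2 lies at chr7:44549616-44553951 (minus), Nr1h3 at chr2:91184061-91202834 (minus) and Ppara at chr15:85734983-85802819 (plus). Rxrb and Nr1h2 are the shortest genes of the set, with spans of 6588 and 4336 bases, and GC contents of 60.5% and 60.9%. Ahr shares 618 bases with Gm48236 and Arnt2 shares 9775 bases with the antisense gene Gm30873, both on the opposite strand and both in the tables. Whether the counting used strand is not given in the sources used here, so reads of such a pair cannot be told apart. The longest overlap on the same strand was that of Nr1h3, which shares 6873 bases with Gm13783, a processed transcript absent from the tables.

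Promoters are shown for Tiparp, the target gene of AhR, and for Ppara, since AhR with ARNT binds a core of GCGTG and these promoters of the RefSeq table (build GRCm38.p6) hold it. Capitals mark GCGTG and, on the other strand, CACGC. Each runs from 250 bases before the start of transcription to 50 bases after it, at chr3:65528197-65528496 for Tiparp and at chr15:85735526-85735825 for Ppara, both on the plus strand.
Tiparp: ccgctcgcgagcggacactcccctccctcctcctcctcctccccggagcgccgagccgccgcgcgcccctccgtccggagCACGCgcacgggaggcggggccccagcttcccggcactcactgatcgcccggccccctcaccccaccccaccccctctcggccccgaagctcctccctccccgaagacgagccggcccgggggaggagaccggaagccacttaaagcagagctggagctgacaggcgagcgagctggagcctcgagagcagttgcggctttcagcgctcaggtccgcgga
Ppara: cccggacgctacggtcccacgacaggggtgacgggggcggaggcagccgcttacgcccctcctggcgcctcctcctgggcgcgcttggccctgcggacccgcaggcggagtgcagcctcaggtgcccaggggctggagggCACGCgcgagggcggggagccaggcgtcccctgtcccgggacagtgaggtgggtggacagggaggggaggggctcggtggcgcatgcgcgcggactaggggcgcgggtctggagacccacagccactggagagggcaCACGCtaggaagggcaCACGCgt
The table held 13 promoters for 9 of the 10 genes, with none for Ahr. The core was in 5 of the 13, namely 1 of Tiparp, 1 of Ppara with 3 copies, 1 of Arnt and both of Rxrb, and in 32.4% of all promoters of this length. A match describes the letters and is not a measured binding site.

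Before the group comparisons, the depth of the libraries needs to be stated. In Hip a library held 49067853 to 63217083 unique molecular identifiers (UMIs). The median nucleus held 4678 to 5905 UMIs in the GF libraries of Hip and 5460 to 7579 in the others. In PFC the 3 GF libraries held 59126586 to 71463928 UMIs, while the SPF and CGF libraries held 20336250 to 26949210, so that depth and the absence of microbes cannot be told apart there. Mitochondrial UMIs made up 0.645% to 1.10% of the GF libraries and 0.0770% to 0.471% of the others in Hip, and 0.359% to 0.594% of the GF libraries and 1.28% to 3.22% of the others in PFC. The part of these differences in the group results was not tested. Counts of each type were also thinned to equal mean UMIs per nucleus, called equal depth here. Those values are given beside the called PFC differences of the 10 genes between GF and SPF mice. They are not given for other genes. Thinning takes UMIs of all genes at the same rate, which keeps the expected CPM. It therefore cannot show whether depth moved the differences. The summed counts still differed with the number of nuclei. Hip libraries also differed in RNA of the choroid plexus, whose 7 markers summed to 29.9 to 1702 CPM in the excitatory neurons of GF mice, to 95.8 to 637.2 in those of SPF mice and to 33.0 to 245.3 in those of CGF mice, and its part in the Hip results was not tested. Between libraries, 0.086% to 0.366% of barcodes were shared over 153 pairs.

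Nuclei were assigned to cell types by lists of marker genes, and 59651 of 71398 nuclei in Hip and 55228 of 66602 in PFC were assigned. Excitatory neurons were the most numerous, with 35747 and 37313 nuclei, and microglia held 1970 and 1907. Genes known from one type were also detected in others, and how much of this is free RNA was not tested. Syt1, a synaptic vesicle gene of neurons, reached 18.2% of its level in excitatory neurons in Hip astrocytes and 15.3% in PFC astrocytes, and Slc17a7, the vesicular glutamate transporter, reached 84.7% and 53.7%. In the other direction, the astrocyte gene Aqp4 reached 3.22% and 1.58% of its astrocyte level in excitatory neurons. The level of a gene is given as CPM, its UMIs per 1000000 UMIs of the same cell type and library. CPM is not divided by gene length, so levels are compared between cell types and mice and not between genes. Because UMIs were summed over the nuclei of a type, a change in which nuclei make up the type and a change in the RNA of each nucleus cannot be told apart.

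**Figure D1:**
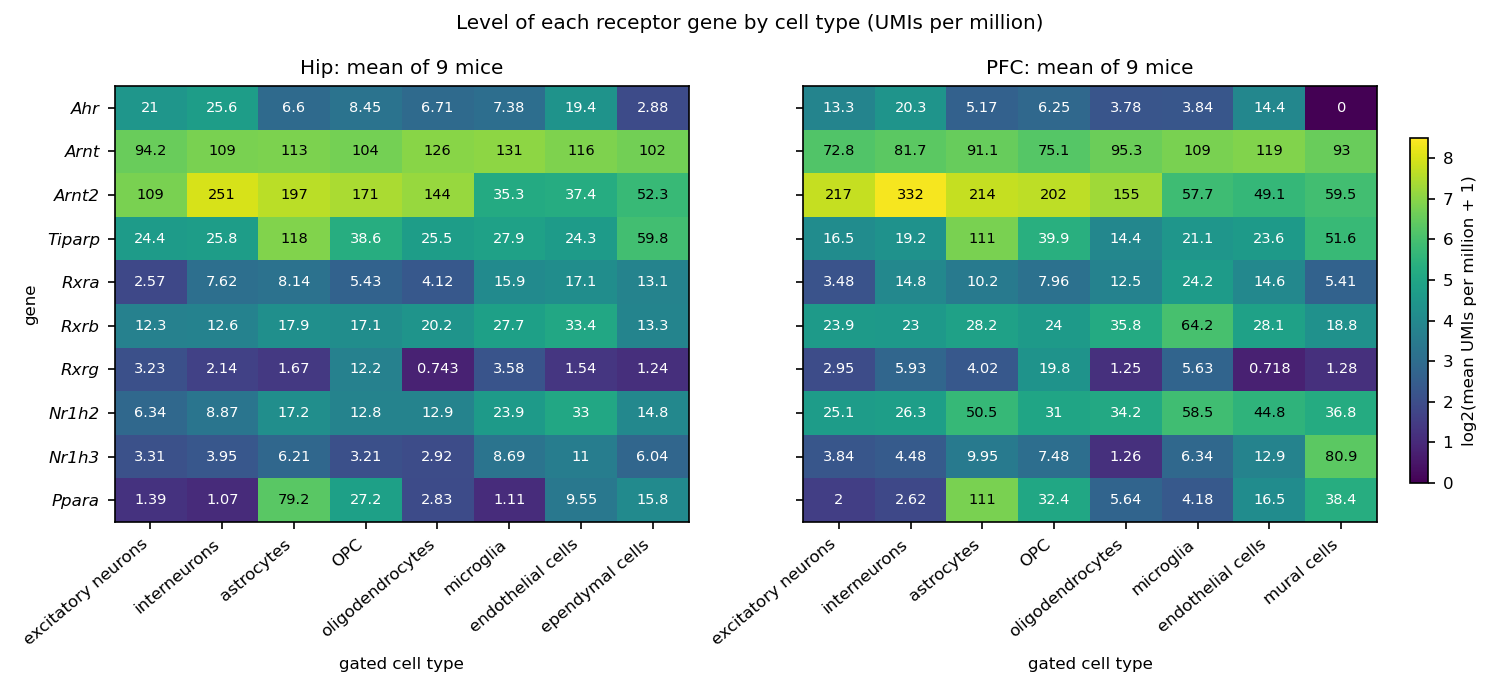
Mean level (CPM over 9 mice, colour on a log2 scale of the mean plus 1) of the 10 genes in each gated cell type of Hip and PFC. Ppara and Tiparp stood out in astrocytes (Ppara 79.2 and 111 CPM, Tiparp 118 and 111 CPM), Arnt2 in interneurons (251 and 332 CPM) and Nr1h3 in PFC mural cells (80.9 CPM).

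Among the tested types Ahr was highest in neurons and endothelial cells. In Hip it averaged 25.6 ± 8.30 CPM (SD, n = 9) in interneurons, 21.0 ± 4.48 in excitatory neurons and 19.4 ± 12.0 in endothelial cells, and from 2.88 to 8.45 in the other 5 types. The same 3 types came first in PFC, with 20.3 ± 9.68 CPM in interneurons, 14.4 ± 7.24 in endothelial cells and 13.4 ± 4.71 in excitatory neurons, and Ahr had 0 UMIs in PFC mural cells. No neighbouring pair of types in these orders differed past the threshold in the exact sign-flip test over the 9 mice. Among the untested types of Hip, the choroid plexus epithelium held 92 Ahr UMIs (pooled 19.5 CPM) and border macrophages 6 (pooled 36.3 CPM). Under a stricter gate on markers, endothelial cells came first in both regions. Within Hip, dentate granule neurons averaged 12.3 ± 2.55 CPM and the other excitatory neurons 24.2 ± 5.45. In astrocytes, oligodendrocytes, OPC (oligodendrocyte precursor cells) and microglia the pooled Ahr level was 31.7% to 39.4% of that in excitatory neurons in Hip. In the same types Syt1 was at 18.2% to 25.3% and Slc17a7 at 65.2% to 131.7%, so that Ahr lay between the 2 neuronal genes, and how much of glial Ahr is free RNA was not tested.

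Both ARNT partners were detected in every type, with different breadth. Arnt, the general partner of AhR and of the hypoxia factors, was nearly even, from 94.2 CPM in excitatory neurons to 131 in microglia in Hip and from 72.9 to 119 in PFC. Arnt2, its neural relative, was not. It averaged 251 ± 30.7 CPM in Hip interneurons, 197 ± 22.5 in astrocytes and 171 ± 24.2 in OPC, against 35.3 in microglia and 37.4 in endothelial cells. In PFC it averaged 332 ± 53.6 CPM in interneurons, above excitatory neurons at 217 ± 56.0 in 9 of 9 mice, and 49.1 to 59.5 in endothelial cells, microglia and mural cells. Of the 14 neighbouring pairs past the threshold for all genes, 5 were of Arnt2. They were interneurons above astrocytes, astrocytes above OPC and oligodendrocytes above excitatory neurons in Hip, and interneurons above excitatory neurons and oligodendrocytes above mural cells in PFC. Each had 9 of 9 mice on one side (p = 0.003906, the smallest that the exact sign-flip test over 9 mice can give, Benjamini-Hochberg adjusted p = 0.03906 over 140 pairs). That adjusted p is below the threshold only where at least 11 pairs reach the smallest p. Under the stricter gate 10 pairs had all 9 mice on one side and 0 passed, so that the calls of neighbouring types of all genes given here were lost there.

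Tiparp, an ADP-ribosyltransferase that AhR induces and that represses AhR, was highest in astrocytes of both regions. Its level there ran from 87.8 to 161 CPM (median 116) in the 9 Hip libraries and from 69.2 to 177 CPM (median 90.4) in PFC. The next type in the order was below astrocytes in 9 of 9 mice in both regions, ependymal cells in Hip at 59.8 ± 31.3 CPM and mural cells in PFC at 51.6 ± 30.1 (adjusted p = 0.03906 for each). The remaining types lay between 14.4 and 39.9 CPM, and none of their neighbouring pairs was past the threshold. Pooled astrocyte markers summed to 1392 CPM in Hip ependymal cells and 2909 in PFC mural cells, against 7679 and 7849 in astrocytes. The part of this signal in the Tiparp of ependymal and mural cells was not tested.

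The 3 RXR genes were spread differently. Rxrb, the widely expressed member, averaged 12.3 to 33.4 CPM in Hip and 18.8 to 64.2 in PFC, where microglia (64.2 ± 30.6) lay above oligodendrocytes (35.8 ± 17.8) in 9 of 9 mice (adjusted p = 0.03906). Rxra was low, at 2.57 and 3.48 CPM in excitatory neurons and up to 17.1 in Hip endothelial cells and 24.2 in PFC microglia. Rxrg was highest in OPC, at 12.2 ± 3.90 CPM in Hip from 85 UMIs and 19.8 ± 7.84 in PFC from 62 UMIs. OPC were above the next type in 9 of 9 mice in both regions, microglia in Hip and interneurons in PFC (adjusted p = 0.03906 for each). In all other types Rxrg averaged at most 5.93 CPM. Among Hip excitatory neurons, Rxrg was at 0.681 ± 0.374 CPM in dentate granule neurons and at 3.96 ± 1.36 in the others.

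The LXR genes differed from each other. Nr1h2 (LXRβ) was present in every tested type. PFC means ran from 25.1 CPM in excitatory neurons to 58.55 in microglia. In Hip they ran from 6.34 CPM in excitatory neurons to 33.0 in endothelial cells, with interneurons (8.87 ± 1.53) above excitatory neurons (6.34 ± 0.944) in 9 of 9 mice (adjusted p = 0.03906). Nr1h3 (LXRα) averaged at most 12.95 CPM in the tested types other than PFC mural cells. In Hip endothelial cells came first, but microglia did under the stricter gate. No neighbouring pair of types in Hip differed past the threshold for this gene. In PFC mural cells Nr1h3 reached 80.9 ± 42.3 CPM from 36 UMIs, against 12.95 ± 15.3 in endothelial cells. The mural level was above the endothelial level in 9 of 9 mice (adjusted p = 0.03906). PFC endothelial cells did not differ from astrocytes, the next type, past the threshold. Per mouse, the mural level was 46.4, 149 and 34.5 in GF mice, 108, 30.7 and 71.0 in SPF mice and 62.6, 95.7 and 130.1 in CGF mice. All 9 values were above 30, with wide scatter inside each group. In Hip, where mural nuclei were too few to be tested, the pooled level was 40.7 CPM from 19 UMIs.

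Ppara, the fatty acid sensor, was highest in astrocytes among the tested types and varied little between mice there. Per mouse, its level in Hip astrocytes was 78.0, 87.3 and 63.3 in GF mice, 85.4, 91.2 and 72.6 in SPF mice and 77.1, 79.4 and 78.0 in CGF mice. In PFC astrocytes it was 114, 108 and 93.5 in GF mice, 114, 133 and 112 in SPF mice and 99.7, 111 and 109.5 in CGF mice. The 9 values of a region stayed within 1.5 times of each other. GF values overlapped those of SPF and CGF mice in both regions, while in PFC each SPF value lay above each CGF value. OPC followed at 27.2 ± 3.41 CPM in Hip, below astrocytes in 9 of 9 mice, and at 32.4 ± 14.3 in PFC, where mural cells ranked between at 38.4 ± 42.1 and were below astrocytes in 9 of 9 mice (adjusted p = 0.03906 for each). Excitatory neurons and interneurons averaged 1.39 and 1.07 CPM in Hip and 2.005 and 2.62 in PFC. With the UMIs of all mice pooled, neurons held 1.38% to 1.84% of the astrocyte level, where the astrocyte genes Aqp4 and Gja1 held 1.58% to 3.80%. How much of the Ppara in neurons is free RNA was not tested. Pooled in the same way, OPC held 34.2% and 29.8%, against 11.2% and 8.80% for Aqp4 and 8.14% and 3.44% for Gja1. Fibroblasts, which were too few for a test, had pooled levels of 81.0 and 80.2 CPM from 77 and 67 UMIs. Pooled astrocyte markers summed to 2909 CPM in PFC mural cells and to 2559 and 2709.5 in fibroblasts of Hip and PFC. In astrocytes they summed to 7679 and 7849 CPM. The part of this signal in the Ppara of mural cells and fibroblasts was not tested.

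**Figure D2:**
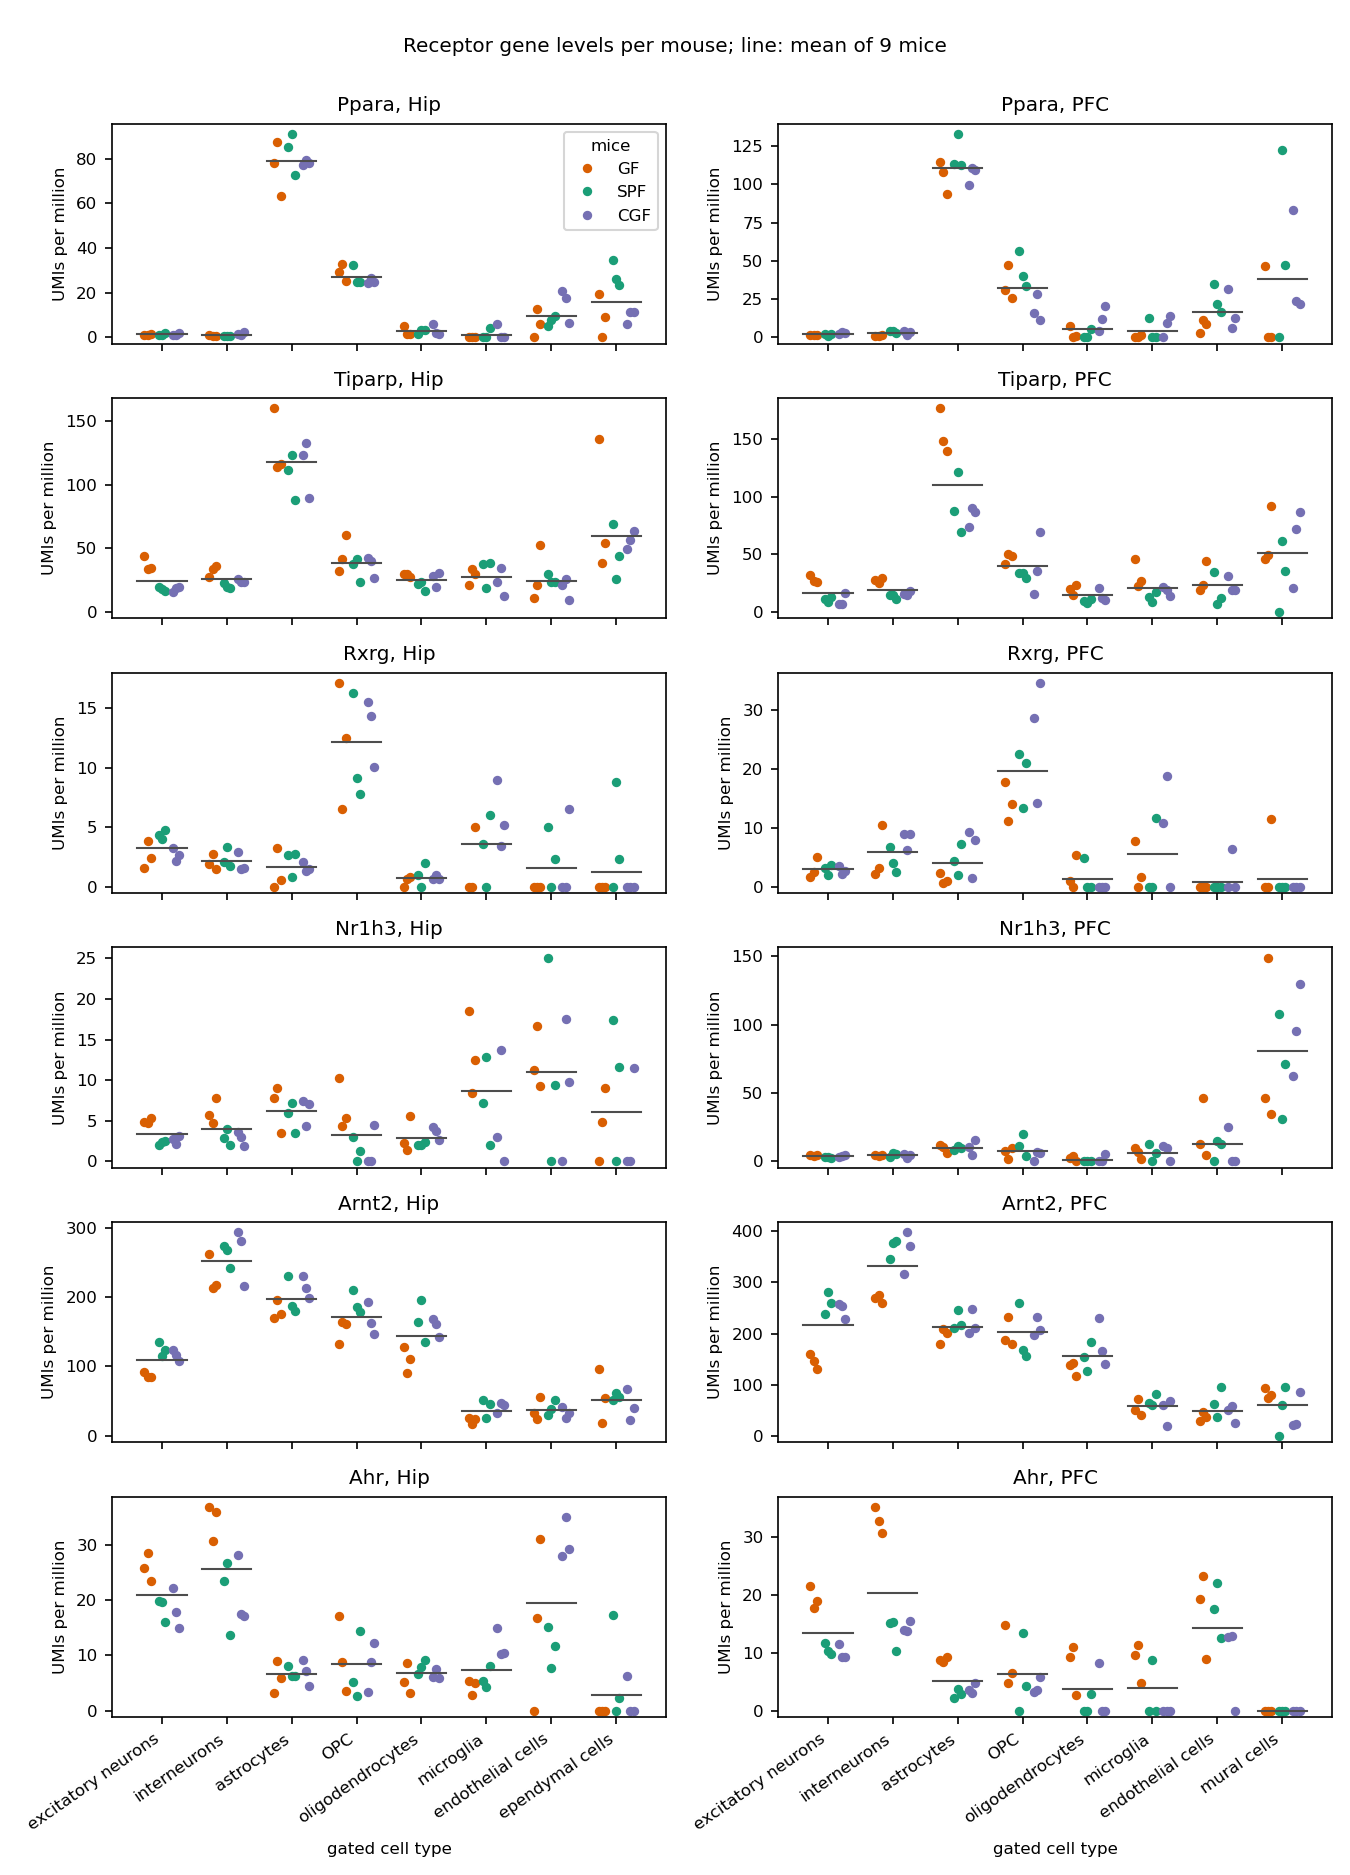
Level (CPM) of Ppara, Tiparp, Rxrg, Nr1h3, Arnt2 and Ahr in each mouse by cell type and region, with 1 point per mouse coloured by group and a line at the mean of 9 mice. The points of Ppara in astrocytes lie between 63.3 and 133 CPM, with GF values overlapping those of the other groups.

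Not every gene could be compared between groups in every type. A gene was called too low where edgeR's filter on counts left it out of the fit of a type. Of the 8 types tested per region, Arnt passed in 8 in Hip and 7 in PFC, Arnt2 in 6 and 6, Rxrb in 6 and 5, Tiparp in 6 and 4, and Nr1h2 in 5 and 5. Ahr passed in 4 and 2, Ppara in 3 and 3, Rxra in 3 and 2, Rxrg in 3 and 2, and Nr1h3 in 3 and 1. Ahr was too low in microglia, OPC, endothelial and ependymal or mural cells of both regions, and in PFC also in astrocytes and oligodendrocytes. Nr1h3 was too low in the mural cells of PFC in spite of its high level there, Nr1h2 was too low in the microglia of Hip, and Rxrg was too low in the OPC of PFC, where its level was highest. No group difference within the region is given for any of these, and the fit over both regions had a filter of its own. In all, 47 of 80 pairs of gene and type could be tested in Hip and 37 of 80 in PFC.

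GF against SPF mice compares mice without a microbiota with mice that had one and were housed differently. In Hip, 13 of the 47 pairs changed by edgeR's quasi-likelihood test at an adjusted p under 0.05, 7 higher and 6 lower in GF mice, against 31% of all tests over genes and types (17.3% higher and 13.6% lower). In PFC, 19 of 37 changed, 8 higher and 11 lower, against 47.2% of all tests (24% higher and 23.1% lower). The share of called pairs among these genes was thus near that of all genes in both regions. The median log2 difference was -0.12 in Hip and -0.17 in PFC, while the median over all genes of a type lay between -0.04 and 0.04. GF and SPF values did not overlap for 18 pairs in Hip and 26 in PFC, against 44.7% and 57% of all tests.

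**Figure D3:**
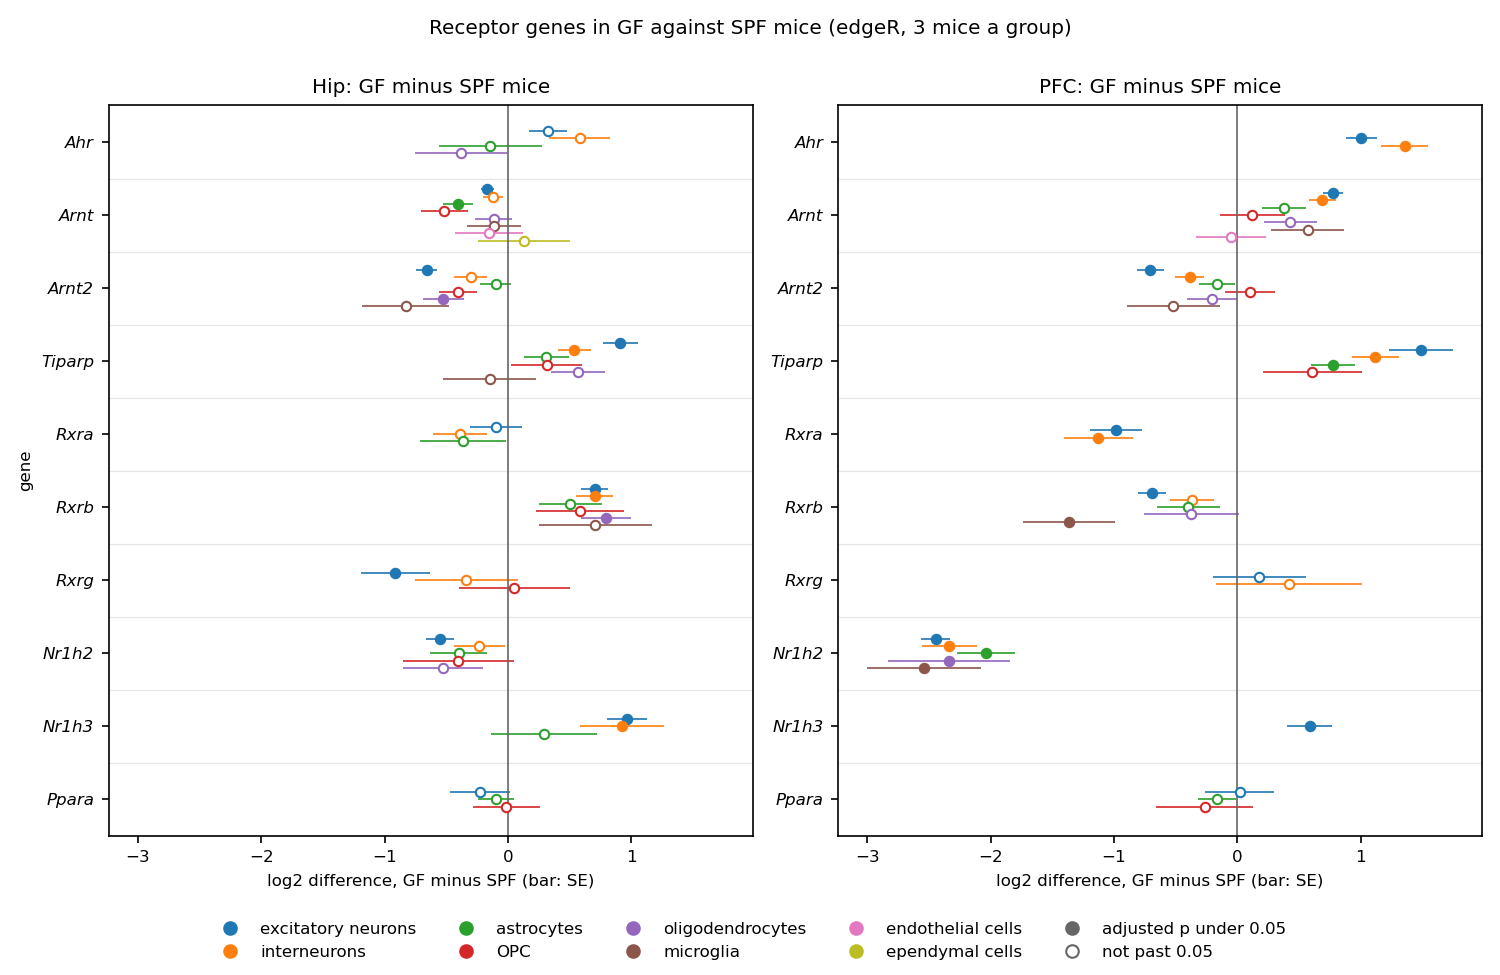
Log2 difference of GF minus SPF mice (± SE, 3 mice a group) for each gene and cell type that could be tested in Hip and PFC, with filled points for an adjusted p under 0.05. Tiparp lies to the right of zero in all neurons of both regions, Arnt2 to the left in excitatory neurons of both, and Nr1h2 reaches -2.54 in PFC microglia.

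Tiparp was higher in GF neurons of both regions. In Hip excitatory neurons its level was 44.2, 33.6 and 34.4 in GF mice, 19.5, 17.8 and 16.5 in SPF mice and 15.5, 18.7 and 19.7 in CGF mice, and all GF values lay above all others (log2 difference 0.91, SE 0.141, adjusted p = 0.000782). PFC excitatory neurons gave 31.8, 26.9 and 26.2 in GF mice, 11.5, 8.68 and 13 in SPF mice and 7.21, 6.98 and 16.5 in CGF mice, again with no overlap (log2 difference 1.485, SE 0.260, adjusted p = 0.00034). Interneurons moved the same way, with log2 differences of 0.54 in Hip (adjusted p = 0.00967) and 1.12 in PFC (adjusted p = 0.000134). The Hip interneuron difference was 0.28 under the stricter gate (adjusted p = 0.201). In astrocytes, the type with most Tiparp, PFC gave 177, 148 and 139.9 in GF mice, 87.8, 122 and 69.2 in SPF mice and 73.9, 90.4 and 87.3 in CGF mice (log2 difference 0.77, SE 0.177, adjusted p = 0.000823). All 3 GF values exceeded all SPF and CGF values there. In Hip astrocytes the groups overlapped, at 161, 114 and 116 in GF mice, 112, 123 and 87.8 in SPF mice and 123, 133 and 89.6 in CGF mice (log2 difference 0.31, SE 0.182, adjusted p = 0.204). At equal depth the PFC differences were 1.45 in excitatory neurons, 0.98 in interneurons and 0.70 in astrocytes.

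Ahr, the receptor, was higher in GF neurons of PFC. In PFC interneurons its level was 35.3, 32.9 and 30.7 in GF mice, 15.1, 15.4 and 10.3 in SPF mice and 13.9, 13.7 and 15.5 in CGF mice, and the lowest GF mouse was above every SPF and CGF mouse (log2 difference 1.36, SE 0.189, adjusted p = 1.67e-05). PFC excitatory neurons gave 21.5, 17.8 and 18.9 in GF mice, 11.7, 10.3 and 9.84 in SPF mice and 11.5, 9.29 and 9.31 in CGF mice (log2 difference 1.005, SE 0.122, adjusted p = 1.92e-05). At equal depth these were 1.36 and 1.03. In Hip excitatory neurons the level was 25.8, 28.6 and 23.5 in GF mice, 19.9, 19.7 and 16.1 in SPF mice and 22.2, 17.8 and 15.0 in CGF mice, and GF values were above the others without a call (log2 difference 0.33, SE 0.154, adjusted p = 0.111). Without TMM scaling, which moved the median of all genes in this type to 0.19, the difference was 0.48 (adjusted p = 0.0234). Hip interneurons gave a log2 difference of 0.58 (adjusted p = 0.0850), and 0.71 without TMM (adjusted p = 0.0402). Ahr in Hip astrocytes and oligodendrocytes did not pass, at -0.14 and -0.38.

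Arnt2 was lower in GF excitatory neurons of both regions. The difference between the regions was -0.01 on the log2 scale (adjusted p = 0.965), but 0.33 without TMM (adjusted p = 0.0368). The Hip level was 92.7, 84.4 and 85.2 in GF mice, 135, 115 and 123.5 in SPF mice and 123, 117 and 109 in CGF mice (log2 difference -0.66, SE 0.0880, adjusted p = 0.000372). In PFC it was 159, 146 and 131 in GF mice, 239, 280.2 and 259 in SPF mice and 257, 253 and 227 in CGF mice (log2 difference -0.70, SE 0.110, adjusted p = 0.000137). GF mice lay below all others in both regions. The same order of groups held inside subsets of these neurons, which are ranges of marker levels and not separate types. GF, SPF and CGF mice averaged 50.5, 86.8 and 72.7 CPM in dentate granule neurons, 167, 287 and 259 in upper-layer neurons and 110.2, 200.1 and 199.6 in layer 6 neurons. Arnt2 was also lower in Hip oligodendrocytes (log2 difference -0.52, SE 0.165, adjusted p = 0.0274) and PFC interneurons (log2 difference -0.39, SE 0.119, adjusted p = 0.0121). These last calls were lost after trends on the length and GC content of genes had been taken out of each library (-0.22 and -0.11). The first was also lost without GF mouse 6 or 7 or SPF mouse 30 or 31 (-0.66 to -0.39 over the mice left out, highest adjusted p = 0.131), and the second without SPF mouse 32 (highest adjusted p = 0.0607). At equal depth Arnt2 in PFC differed by -0.71 in excitatory neurons and -0.38 in interneurons.

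Arnt, the general partner, was higher in GF neurons of PFC and lower in GF astrocytes of Hip. PFC excitatory neurons gave 96.2, 93.9 and 91.5 in GF mice, 57.9, 59.7 and 62.6 in SPF mice and 67.3, 60.1 and 66.6 in CGF mice, higher in GF mice without overlap (log2 difference 0.77, SE 0.0799, adjusted p = 4.81e-06). PFC interneurons moved likewise (log2 difference 0.69, SE 0.110, adjusted p = 6.37e-05). These were 0.78 and 0.59 at equal depth. PFC astrocytes were not called (0.38). In Hip astrocytes it was 88.1, 91.5 and 100.3 in GF mice, 139, 123 and 121 in SPF mice and 124, 117 and 112 in CGF mice, lower in GF mice (log2 difference -0.41, SE 0.124, adjusted p = 0.0187). In Hip excitatory neurons the CPM values were nearly equal, at 94.5, 91.2 and 93.3 in GF mice, 92.8, 95.6 and 93.8 in SPF mice and 96.4, 93.6 and 96.9 in CGF mice. The call there (log2 difference -0.17, SE 0.0531, adjusted p = 0.0259) rests on TMM scaling, since the difference was -0.02 without it (adjusted p = 0.797) and -0.01 with length and GC removed. It was also lost without GF mouse 6 or 7 or SPF mouse 30 or 31 (-0.23 to -0.14, highest adjusted p = 0.0949). The astrocyte call was lost without GF mouse 5 or 6 or SPF mouse 30 (-0.48 to -0.35, highest adjusted p = 0.0738), under the stricter gate (-0.36, adjusted p = 0.0502) and with length and GC removed (-0.23, adjusted p = 0.178).

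**Figure D4:**
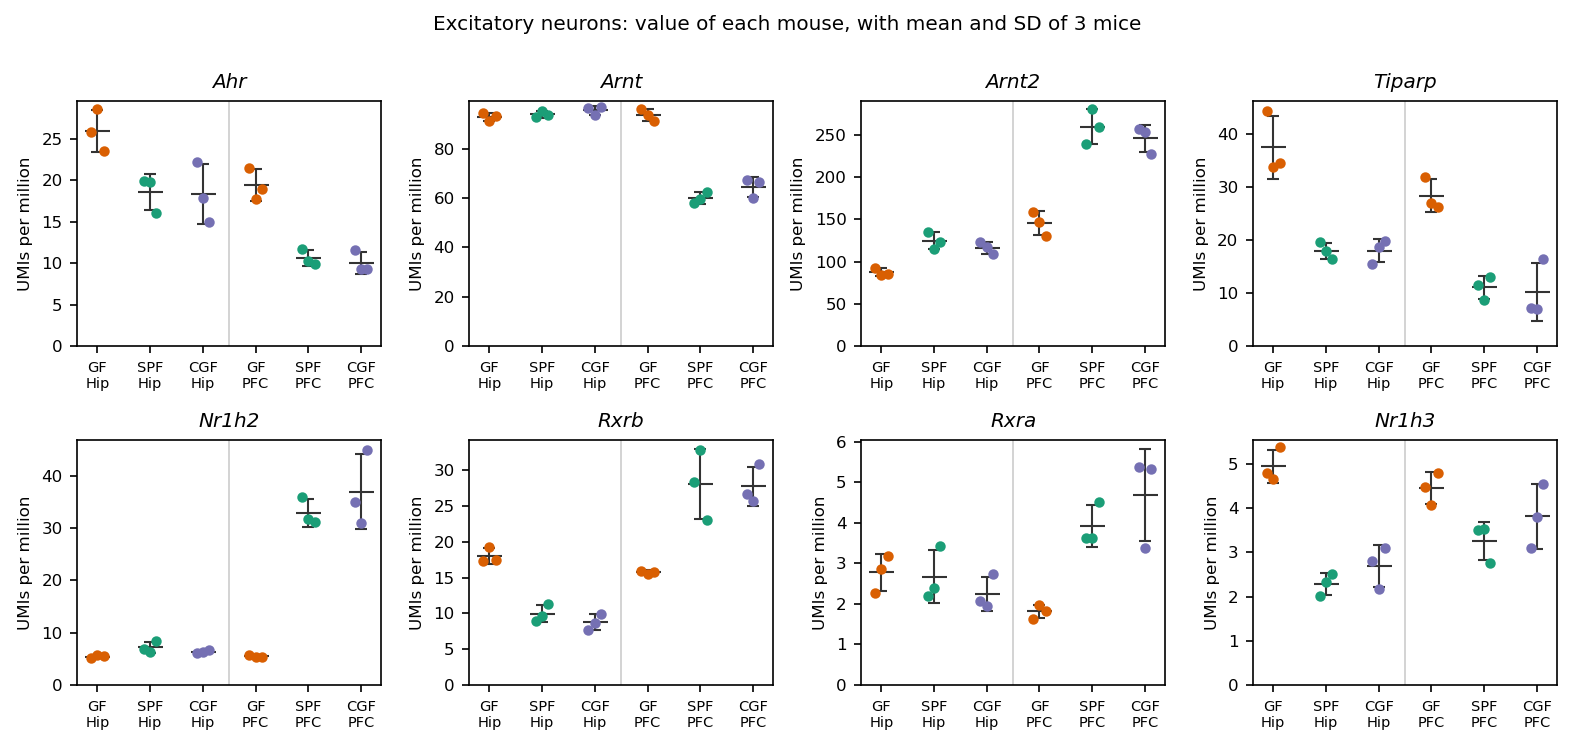
Level (CPM) of Ahr, Arnt, Arnt2, Tiparp, Nr1h2, Rxrb, Rxra and Nr1h3 in excitatory neurons of each mouse by group and region, with the mean ± SD of 3 mice. Nr1h2 in PFC separates GF mice (5.42 to 5.65 CPM) from SPF and CGF mice (31.1 to 44.9 CPM).

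Nr1h2 (LXRβ) had the largest called difference of the set and was lower in GF mice in every PFC type in which it could be tested. In PFC excitatory neurons its level was 5.65, 5.43 and 5.42 in GF mice, 35.9, 31.7 and 31.1 in SPF mice and 34.96, 31.1 and 44.9 in CGF mice (log2 difference -2.45, SE 0.120, adjusted p = 1.16e-08). In PFC astrocytes it was 13.9, 16.0 and 19.5 in GF mice, 72.8, 68.5 and 67.8 in SPF mice and 57.5, 53.0 and 85.7 in CGF mice (log2 difference -2.04, SE 0.235, adjusted p = 1.14e-07). All GF values lay below all SPF and CGF values in both types. In PFC microglia it was 11.6, 9.09 and 20.9 in GF mice, 64.4, 96.3 and 75.9 in SPF mice and 114, 65.9 and 68.7 in CGF mice (log2 difference -2.54, SE 0.461, adjusted p = 3.5e-05). These microglial values rest on 85 Nr1h2 UMIs over the 9 mice. PFC microglia held 439943 to 622017 UMIs of all genes in a GF library and 72829 to 183799 in an SPF or CGF library. Interneurons and oligodendrocytes gave log2 differences of -2.34 ± 0.223 (SE) and -2.34 ± 0.493. At equal depth the 5 PFC differences ran from -3.36 to -1.99, and with length and GC removed from -2.45 to -2.02. In Hip the difference was smaller. Hip excitatory neurons held 5.14, 5.72 and 5.48 in GF mice, 6.91, 6.30 and 8.34 in SPF mice and 6.14, 6.27 and 6.76 in CGF mice (log2 difference -0.55, SE 0.116, adjusted p = 0.00382), with all GF values under the SPF and CGF values. The GF level of Nr1h2 in excitatory neurons was thus near that of Hip in both regions, 5.45 ± 0.292 and 5.499 ± 0.133 CPM (SD, n = 3), and the PFC level stood apart in SPF and CGF mice (32.9 ± 2.63 and 37.0 ± 7.12), whose PFC libraries were the shallow ones. In the 4 other Hip types tested Nr1h2 did not pass (-0.23 to -0.53). With length and GC removed, astrocytes, interneurons and oligodendrocytes of Hip passed at -1.01, -0.88 and -1.075.

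The sums of microglia also held UMIs of genes listed as astrocyte markers. The list of 10 astrocyte markers, none of them at 0, summed in PFC microglia to 2124 to 2944 CPM for GF mice, to 2539 to 3104 for SPF mice and to 2238 to 3292 for CGF mice, against 7849 in PFC astrocytes. Of these, Aqp4 and Gja1 stood at 5.34% and 6.77% of their astrocyte level in PFC microglia. The part of this signal in the microglial values was not tested. In PFC excitatory neurons the same list stood between 192.5 and 208 CPM for GF mice, 321.5 and 357.1 for SPF mice and 290.6 and 328.3 for CGF mice, lower in GF mice as Nr1h2 was. Its part in the neuronal results was not tested. Nr1h2 itself was at 69.7 ± 2.74 CPM in the astrocytes and 32.9 ± 2.63 in the excitatory neurons of SPF mice.

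Nr1h3 (LXRα) was higher in GF excitatory neurons, at a low level. The Hip values were 4.79, 4.67 and 5.38 in GF mice, 2.02, 2.32 and 2.51 in SPF mice and 2.79, 2.18 and 3.101 in CGF mice (log2 difference 0.96, SE 0.160, adjusted p = 0.00112). In PFC they were 4.47, 4.08 and 4.81 in GF mice, 3.501, 3.52 and 2.76 in SPF mice and 3.09, 3.80 and 4.56 in CGF mice (log2 difference 0.59, SE 0.1802, adjusted p = 0.0135). GF and SPF values did not overlap in either region, while 1 CGF value of PFC lay among the GF values. The PFC difference was 0.45 without TMM (adjusted p = 0.0568), and its call was lost without SPF mouse 32 (adjusted p = 0.0536). At equal depth it was 0.73 (adjusted p = 0.00915). Within PFC excitatory neurons the subsets went opposite ways. GF, SPF and CGF mice averaged 5.34, 1.84 and 2.06 CPM in upper-layer neurons and 4.31, 8.36 and 8.18 in layer 6 neurons. These subsets were not tested. Hip interneurons gave 0.92 ± 0.339 (SE, adjusted p = 0.0497), a call lost without any 1 of GF mice 5, 6 and 7, SPF mice 30 and 32 and CGF mice 17 and 18 (0.70 to 1.18, highest adjusted p = 0.195). It was also lost under DESeq2, no filter, the stricter gate and length and GC removal (highest adjusted p = 0.288).

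Rxrb, the general RXR, was higher in GF mice in Hip and lower in PFC. Hip excitatory neurons held 17.3, 19.3 and 17.5 in GF mice, 8.98, 9.63 and 11.3 in SPF mice and 7.68, 8.70 and 9.95 in CGF mice (log2 difference 0.70, SE 0.109, adjusted p = 0.000815). PFC excitatory neurons held 16.0, 15.5 and 15.8 in GF mice, 28.3, 32.8 and 23.0 in SPF mice and 26.7, 25.7 and 30.9 in CGF mice (log2 difference -0.695, SE 0.115, adjusted p = 0.000212). The 3 GF values lay above all others in Hip and below all others in PFC. Hip interneurons (0.70 ± 0.151) and oligodendrocytes (0.79 ± 0.202) rose as well. All 3 Hip calls were lost with length and GC removed, at 0.18, 0.18 and 0.38, while the PFC excitatory difference was then -0.51 (adjusted p = 0.000715). In PFC microglia Rxrb was 38.6, 45.5 and 28.9 in GF mice, 129, 70.0 and 81.7 in SPF mice and 54.4, 47.0 and 82.4 in CGF mice (log2 difference -1.37, SE 0.372, adjusted p = 0.00364). These microglial values rest on 111 Rxrb UMIs over the 9 mice. The PFC differences were -0.74 in excitatory neurons and -1.495 in microglia at equal depth.

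Rxra was lower in GF neurons of PFC. Excitatory neurons held 1.63, 1.97 and 1.84 in GF mice, 3.63, 3.62 and 4.52 in SPF mice and 5.37, 3.39 and 5.34 in CGF mice (log2 difference -0.98, SE 0.211, adjusted p = 0.00146), and interneurons held 6.34, 8.53 and 7.64 in GF mice, 24.3, 17.4 and 11.6 in SPF mice and 15.4, 16.0 and 26.1 in CGF mice (log2 difference -1.13, SE 0.279, adjusted p = 0.00294). All GF values lay below all SPF and CGF values in both types, while SPF and CGF values overlapped, and neither call held with length and GC removed (-0.39 and -0.52). At equal depth the differences were -0.99 and -1.14. In Hip Rxra did not pass in any of 3 types (-0.39 to -0.10). Rxrg was lower in GF excitatory neurons of Hip, at 1.57, 3.87 and 2.42 in GF mice, 4.34, 4.002 and 4.80 in SPF mice and 3.27, 2.13 and 2.67 in CGF mice (log2 difference -0.91, SE 0.279, adjusted p = 0.0234). Each GF value was under each SPF value, and CGF values spread between 2.13 and 3.27. This call was lost without GF mouse 5, GF mouse 7 or SPF mouse 30 (-1.28 to -0.66 over the mice left out, highest adjusted p = 0.0730), and without TMM (-0.75, adjusted p = 0.0606). In Hip OPC, where Rxrg was highest, the difference was 0.05 ± 0.451 (SE), with a 95% interval by the normal quantile of -0.83 to 0.93.

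Ppara did not pass between GF and SPF mice in any of the 6 tests. In astrocytes the log2 difference was -0.10 ± 0.146 (SE) in Hip and -0.17 ± 0.154 in PFC. The 95% intervals by the normal quantile were -0.38 to 0.19 and -0.47 to 0.14. In OPC it was -0.01 ± 0.271 and -0.27 ± 0.390. The OPC sums were sparse, with 2 to 32 Ppara UMIs a library.

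GF against CGF mice compares mice that lacked a microbiota with mice that gained one. It shares its GF mice with the comparison above, so the values are given beside each other and do not count as a second test. In Hip 13 of 47 pairs changed, 6 higher and 7 lower in GF mice, against 32.6% of all tests (18% higher and 14.6% lower), and in PFC 19 of 37, 8 higher and 11 lower, against 46.7% (24% and 22.8%). In Hip excitatory neurons the log2 difference was -0.61 ± 0.0880 (SE) for Arnt2, 0.86 ± 0.141 for Tiparp, 0.69 ± 0.159 for Nr1h3, 0.84 ± 0.110 for Rxrb and -0.43 ± 0.117 for Nr1h2. In PFC excitatory neurons it was -2.58 ± 0.120 for Nr1h2, 1.65 ± 0.263 for Tiparp, 1.10 ± 0.123 for Ahr, 0.695 ± 0.0798 for Arnt and -0.61 ± 0.110 for Arnt2. Each of these passed the threshold. In Hip the call of Nr1h2 was lost without TMM (adjusted p = 0.172), and those of Rxrb and Nr1h3 were lost with length and GC removed (adjusted p = 0.0919 and 0.0507). Nr1h2 was lower in Hip oligodendrocytes against CGF mice (-0.9979 ± 0.315, adjusted p = 0.0262), where against SPF mice it was -0.53 ± 0.325 (adjusted p = 0.232). That call was lost without GF mouse 5 or CGF mouse 18 or 19 (-1.305 to -0.71 over the mice left out, highest adjusted p = 0.0993).

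CGF against SPF mice compares colonization of juveniles with a microbiota from birth. By edgeR 0 of 47 pairs in Hip and 0 of 37 in PFC passed, with 0 and 0 by DESeq2. Over all tests 0.214% and 0.165% passed. At an unadjusted p under 0.05 there were 2 and 1, against 9.55% and 9.83% of all tests. The log2 differences ran from -0.66 to 0.47 in Hip and from -1.11 to 0.90 in PFC, with a median SE of 0.214 and 0.231, and a p that misses the threshold does not show that CGF and SPF mice were alike. In excitatory neurons Tiparp differed by 0.04 ± 0.141 (SE) in Hip and -0.17 ± 0.274 in PFC, Arnt2 by -0.05 ± 0.0875 and -0.10 ± 0.109, and Nr1h2 by -0.12 ± 0.115 and 0.14 ± 0.112.

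The difference between Hip and PFC was next taken over all 18 libraries. Of 51 pairs of gene and type, 31 differed, 10 higher and 21 lower in Hip, against 51.8% of all tests (27.3% higher and 24.5% lower). Within GF mice alone 1 of 51 differed, against 9.94% of all genes, within SPF mice 25 against 41.2%, and within CGF mice 26 against 42.5%. These within-group values were added after seeing the data, because the PFC libraries of SPF and CGF mice were shallow. The pair that differed within GF mice was Arnt2 in excitatory neurons. Its log2 difference of Hip minus PFC was -0.85 ± 0.102 (SE) in GF mice, -0.84 ± 0.102 in SPF mice, -0.81 ± 0.102 in CGF mice and -0.84 over all mice (adjusted p = 5.99e-10).

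**Figure D5:**
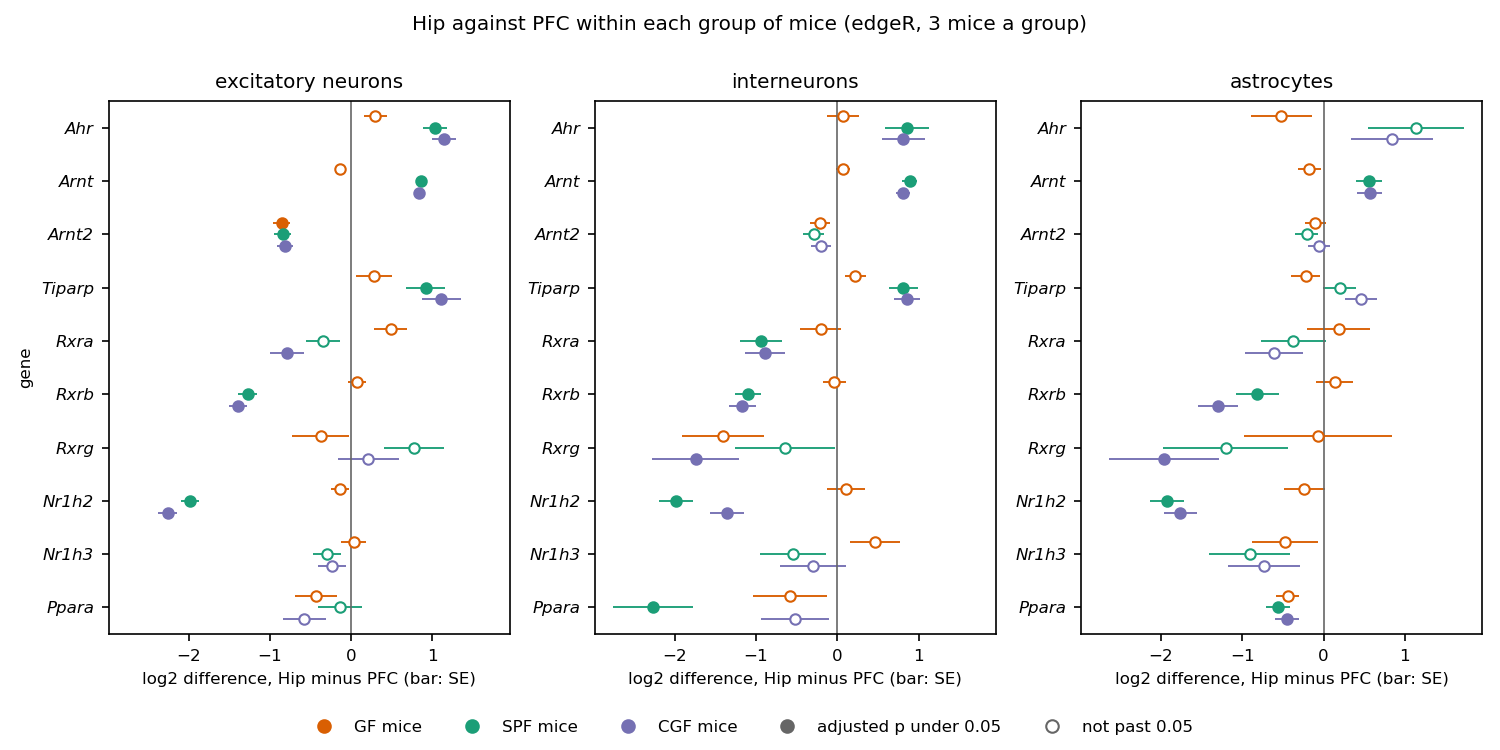
Log2 difference of Hip minus PFC (± SE) within GF, SPF and CGF mice for each gene in excitatory neurons, interneurons and astrocytes. Arnt2 in excitatory neurons sits between -0.85 and -0.81 in all 3 groups, while Nr1h2 lies at -0.14 in GF mice and at -1.98 and -2.26 in SPF and CGF mice.

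The other region differences of excitatory neurons were not called in GF mice. Nr1h2 in excitatory neurons was at -0.14 ± 0.113 (SE) in GF mice, against -1.98 ± 0.111 for SPF mice and -2.26 ± 0.113 for CGF mice. Rxrb gave 0.07 ± 0.109, -1.27 ± 0.113 and -1.39 ± 0.114, and Arnt gave -0.13 ± 0.0644, 0.86 ± 0.0658 and 0.84 ± 0.0657. Ahr and Tiparp were higher in Hip excitatory neurons in SPF mice (1.03 and 0.92) and in CGF mice (1.14 and 1.11), and were at 0.30 and 0.28 in GF mice without a call. Ppara in astrocytes was lower in Hip by a like amount in each group, at -0.44 ± 0.141 in GF mice (adjusted p = 0.0514), -0.56 ± 0.151 for SPF mice and -0.45 ± 0.148 for CGF mice. Over all mice it differed by -0.49 ± 0.0847 (adjusted p = 2.4e-05).

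Whether GF against SPF differed between the regions was tested as an interaction. Of 51 pairs 15 passed, 10 with the higher log2 difference in Hip and 5 with the higher in PFC, against 27.6% of all tests (12.8% and 14.8%). Nr1h2 passed in 5 types, Rxrb in 4, Arnt in 3, and Ahr, Rxra and Tiparp in 1 each. Arnt2 in excitatory neurons gave -0.01 ± 0.143 (SE), and 0.33 without TMM (adjusted p = 0.0368), where it passed. With the mouse as a block the count was 18. Tiparp (-0.65) and Rxrg (-1.11) in excitatory neurons, Ahr in interneurons (-0.78) and Rxrb in oligodendrocytes (1.20) were then called as well, and Tiparp in interneurons was not (-0.58, adjusted p = 0.0559).

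Genes around the receptors were taken from lists by function, and those counted here were counted over all types in which their genes could be tested. Of the chaperones that hold AhR in the cytosol, Hsp90ab1, an HSP90 isoform, was at 206.9 ± 17.1 CPM in GF and 107.6 ± 30.0 in SPF interneurons of Hip (SD, n = 3, log2 difference 0.815, adjusted p = 0.00375). In PFC excitatory neurons it was at 126.6 ± 8.52 in GF and 479.3 ± 32.3 in SPF mice (log2 difference -1.79, adjusted p = 1.6e-07). Ptges3, the p23 cochaperone, rose in oligodendrocytes of both regions (0.79 and 1.10). Of 8 AhR target genes, 5 could be tested in Hip and 4 in PFC, with 1 rise in 14 tests and 3 rises in 8, and no fall. Nfe2l2, which encodes the antioxidant factor NRF2, rose in Hip microglia (153.4 against 88.0 CPM, log2 difference 0.83, adjusted p = 0.00442).

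Enzymes of tryptophan and kynurenine metabolism, which both make and use up kynurenine, rose in 0 and fell in 3 of 22 tests in Hip. In PFC they rose in 2 and fell in 1 of 9. Kmo, which hydroxylates kynurenine, was unlike the rest. PFC excitatory neurons held 631 Kmo UMIs in the 3 GF mice, 4 in the 3 SPF mice and 14 in the 3 CGF mice, or 4.13, 0.0771 and 0.261 CPM (log2 difference of GF against SPF mice 5.87, adjusted p = 3.81e-07). In Hip excitatory neurons it averaged 4.82, 5.90 and 5.96 CPM in the same order, with overlapping ranges. Kyat3, which makes kynurenic acid, fell in excitatory neurons of both regions (-0.83 and -0.69). The other PAS partners of ARNT rose in 4 and fell in 5 of 29 tests in Hip and rose in 5 and fell in 5 of 30 in PFC. Among them Epas1, the hypoxia factor HIF-2α, rose in PFC astrocytes (169.8 against 93.2 CPM, log2 difference 0.86), and Npas4, an activity-dependent neuronal factor, rose in Hip interneurons (11.6 against 4.11 CPM). Larger falls stood beside these. Npas1 fell in PFC OPC (15.2 against 106 CPM, log2 difference -2.70), Npas3 in microglia of Hip (31.6 against 93.7, -1.53) and PFC (37.1 against 121.6, -1.81), and Sim1 in Hip excitatory neurons (0.949 against 2.27, -1.41).

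Target genes of LXR rose in 10 and fell in 5 of 61 tests in Hip, and rose in 13 and fell in 11 of 45 in PFC. Apoe, the lipoprotein of brain cholesterol transport, was at 6333 ± 1749 CPM in GF and 1209 ± 202 in SPF ependymal cells of Hip (log2 difference 2.52, adjusted p = 0.000399). Smpdl3a, a phosphodiesterase induced by LXR, rose in Hip astrocytes (81.95 against 30.97 CPM, log2 difference 1.445, adjusted p = 1.35e-05). In PFC, Apoe rose in mural cells (986.9 against 112.7 CPM, log2 difference 3.13, adjusted p = 3.24e-05). Smpdl3a rose in PFC endothelial cells (88.6 against 26.0 CPM, log2 difference 2.11, adjusted p = 0.00556). Abca1, the cholesterol exporter, fell in PFC excitatory neurons (5.61 against 20.4 CPM, log2 difference -1.73, adjusted p = 8.96e-05). Target genes of PPARα rose in 3 and fell in 2 of 54 tests in Hip and rose in 5 and fell in 3 of 32 in PFC. Pdk4, a brake on glucose oxidation, rose in oligodendrocytes, at 52.1 against 16.1 CPM in Hip (log2 difference 1.72) and 39.7 against 11.2 in PFC (1.88, from 9 UMIs in SPF mice). The share of called tests in each of the lists counted so far was below or near the 31% and 47.2% of all genes. This includes the LXR targets in PFC, where the share was highest (24 of 45).

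Other partners of RXR rose in 5 and fell in 3 of 56 tests in Hip and rose in 6 and fell in 8 of 48 in PFC, also below the shares of all genes. Nr4a2, an immediate early orphan receptor, rose in astrocytes of Hip (52.6 against 20.7 CPM, log2 difference 1.44) and PFC (33.1 against 7.24, 2.24). Rara, a retinoic acid receptor, fell in PFC astrocytes (10.4 against 32.1 CPM, -1.57). Among coregulators Nrip1, a corepressor of nuclear receptors, rose in PFC microglia (678.2 against 278.3 CPM, 1.145). In CGF against SPF mice the ARNT partners rose in 2 of 29 tests in Hip and 5 of 30 in PFC. Of all tests, 0.214% and 0.165% were called in either direction. A gene was counted in each type where it could be tested, and the types of a mouse share a library. These tests are therefore not independent, and the counts are of tests and not of genes. No test of the other lists counted here passed.

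The patterns across types were compared with those of other genes as a description, by Pearson's r of log2(CPM + 1) over the 16 means of type and region, which share libraries and depth. The most alike were Cpq (0.919) for Ppara, Palld (0.948) for Tiparp, Megf11 (0.941) for Rxrg, Cacng7 (0.928) for Arnt2 and Cstf2 (0.917) for Ahr. For the others they were Arih1 (0.947) for Arnt, Exosc5 (0.956) for Rxrb, Prrc2a (0.971) for Nr1h2, Slc19a1 (0.91) for Nr1h3 and Commd7 (0.843) for Rxra.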

How the data were processed

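Nuclei of 9 mice were profiled with a droplet 3' kit, 1 library per mouse and region. The authors deposited raw UMI counts per gene and nucleus for each library, made with Cell Ranger (version 3.1.0 by the header of each matrix) against mm10 and genes of Ensembl 92. Whether reads in introns were counted is not given in the sources used here. Each library was read as deposited, with nuclei of at least 200 genes and at most 10% mitochondrial UMIs kept. Nuclei whose markers of exactly 1 type passed a minimum were assigned to it. Excitatory markers did not count against another type, so nuclei past both minima took the other type. Border macrophages could also pass the microglial minimum. Nuclei past the minima of more than 1 other type were left out as mixed. Doublets of an excitatory neuron with another type could thus remain, and no doublet caller was run. Counts were summed per mouse and type, and types with at least 10 nuclei in every library were tested.

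The sums were fitted with edgeR 4.0.16 (limma 3.58.1, R 4.3.3) by its quasi-likelihood test after filterByExpr with a minimum count of 10 and TMM scaling, over all genes, p-values adjusted by Benjamini-Hochberg, threshold 0.05. SE is the log2 difference divided by the root of F. CPM values and overlaps of groups are without TMM. Neighbouring types were compared by a two-sided exact sign-flip test over 9 mice. Alternatives were DESeq2 1.42.0, no TMM, no filter, a stricter gate, counts thinned to equal depth, removal of length and GC trends, the 2 groups alone, the mouse as a block and each mouse left out. The script was tested on simulated counts. Python 3.11.15 with numpy 2.4.6, scipy 1.17.1 and pandas 2.3.3 was used for the rest.

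Mouse numbers in the labels pair Hip and PFC of 1 animal. In excitatory neurons the deviations of such pairs from their group means correlated at a median of 0.253 (0.164 to 0.434) over 12967 genes. In the other types the medians were 0.0604 (interneurons) to 0.271 (oligodendrocytes), and the lowest pairs of interneurons, microglia, astrocytes and endothelial cells were negative (-0.213 to -0.0359). Pairs of different mice reached at most 0.00618 in excitatory neurons, 0.117 in oligodendrocytes and 0.177 in astrocytes, below the medians there. They reached 0.169 in interneurons, 0.105 in OPC, 0.421 in microglia and 0.469 in endothelial cells, above the medians there. Mice are the replicates. All 10 genes are named, and of each list up to 3 genes with the largest change of GF against SPF mice among those past the threshold without overlap of these groups. For likeness across types the genes with the highest correlation and a mean of at least 5 CPM are named. The genes and lists were chosen with earlier results of these data known. The PFC libraries of SPF and CGF mice were the shallowest, so their low genes are least precise. Some genes of the lists, and the counts over the lists that hold them, are not reported here.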

Additional observations from a re-analysis of the deposited data

Results flagged for a closer look

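The difference of GF against SPF mice was not the same in Hip and PFC for 15 of 51 pairs of gene and type, by edgeR's test of the difference itself (the log2 difference in Hip minus that in PFC, with its SE and Benjamini-Hochberg adjusted p). For Nr1h2, the LXRβ gene, it was 1.84, SE 0.158, adjusted p = 5.45e-08 in excitatory neurons and 2.09, SE 0.312, adjusted p = 2.48e-05 in interneurons. Astrocytes gave 1.69 ± 0.333 (adjusted p = 0.000462), microglia 2.25 ± 0.670 (adjusted p = 0.0269) and oligodendrocytes 1.85 ± 0.610 (adjusted p = 0.0358) for the same gene. Nr1h2 in Hip microglia was too low for a fit within Hip, and the value for microglia comes from the fit over both regions. The microglial call was lost without GF mouse 5 or 6 or SPF mouse 31 or 32 (1.585 to 2.84, highest adjusted p = 0.236), and the oligodendrocyte call without GF mouse 6 or 7 or SPF mouse 30 or 31 (0.97 to 2.28, highest adjusted p = 0.369). Both were also lost under the stricter gate, on thinned counts and with length and GC removed.

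For Rxrb it was 1.345 ± 0.157 in excitatory neurons (adjusted p = 1.78e-06), 1.06 ± 0.215 in interneurons (adjusted p = 0.000566), 0.95 ± 0.351 in astrocytes (adjusted p = 0.0493) and 2.10 ± 0.595 in microglia (adjusted p = 0.0205). Arnt gave -0.9966 in excitatory neurons (SE 0.0919, adjusted p = 1.24e-07), -0.82 ± 0.123 in interneurons (adjusted p = 2.68e-05) and -0.74 ± 0.214 in astrocytes (adjusted p = 0.0125). The Rxrb call in astrocytes was lost without any 1 of GF mice 5 and 7, CGF mice 17 and 18 and SPF mice 30, 31 and 32 (0.77 to 1.13, highest adjusted p = 0.172), and with DESeq2, no TMM, no filter, the stricter gate, thinning or length and GC removal. In microglia it was lost without GF mouse 6 or 7 or SPF mouse 30 or 31 (1.72 to 2.495, highest adjusted p = 0.128), under the stricter gate and on thinned counts, and in interneurons with length and GC removed (adjusted p = 0.115). The Arnt call in astrocytes was lost without GF mouse 6 or SPF mouse 32 (-0.945 to -0.58, highest adjusted p = 0.0563), on thinned counts and with length and GC removed.

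The remaining 3 were Ahr in excitatory neurons (-0.73 ± 0.206, adjusted p = 0.00636), Rxra in excitatory neurons (0.84 ± 0.293, adjusted p = 0.0238) and Tiparp in interneurons (-0.59 ± 0.222, adjusted p = 0.0429). The Ahr call was lost without TMM and with length and GC removed (highest adjusted p = 0.204). The Rxra call was lost without GF mouse 7 or SPF mouse 30 or 31 (0.72 to 0.91, highest adjusted p = 0.0973), under the stricter gate and with length and GC removed. The Tiparp call was lost without any 1 of GF mice 5, 6 and 7, CGF mouse 17 and SPF mice 30, 31 and 32 (-0.70 to -0.4989, highest adjusted p = 0.122), and under DESeq2, no TMM, no filter, the stricter gate, thinning, length and GC removal and the mouse block. The PFC libraries of SPF and CGF mice were shallower than those of GF mice, and the part of depth in these differences cannot be told apart from that of the groups. On counts thinned to equal depth 9 pairs passed.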

How the results depend on the processing

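Of 110 called results, 62 kept their direction and their call under every alternative that was run for them, out of 17 in all, of which the mouse block and the 2 groups alone were run for some comparisons only and DESeq2, the stricter gate and thinning gave no value for some genes. Counts under an alternative include pairs that had not passed before. With length and GC removed 6 pairs passed for GF against CGF mice in Hip and 8 for the difference between regions. Under the stricter gate and on thinned counts 9 and 9 passed for the latter, and no pair of neighbouring types (0) passed under the stricter gate, where 10 pairs still had all 9 mice on one side. Within GF mice alone 1 pair differed between Hip and PFC. Leaving out 1 mouse at a time, the calls ran from 8 to 15 (GF against SPF mice, Hip), 18 to 21 (PFC), 9 to 15 (GF against CGF mice, Hip), 18 to 21 (PFC), 0 to 0 (CGF against SPF mice, both regions), 28 to 31 (Hip against PFC) and 9 to 17 (difference between regions). The lowest were 8 without SPF mouse 30 and 9 without SPF mouse 31. With the mouse as a block the counts were 32 for Hip against PFC, where Rxra in excitatory neurons was gained (-0.22, adjusted p = 0.0479), and 18 for the difference between regions. The block entered no comparison of groups within a region. Arnt2 turned direction in Hip against PFC interneurons under the stricter gate (0.0009, adjusted p = 0.992, against -0.24) and in the difference between regions in excitatory neurons without TMM (0.33, adjusted p = 0.0368, against -0.01), and the cause was not tested. Without TMM 13 pairs passed for GF against SPF mice in Hip, 9 higher and 4 lower, and 14 for GF against CGF mice, 10 higher and 4 lower. With length and GC removed 9 passed for GF against SPF mice in Hip, 3 higher and 6 lower.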
